A study of Mus musculus with 9 samples.

Results

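Expression in 6 arrays of leukaemic mouse progenitors, taken as 1 group, was compared with 3 arrays of the same sorted fraction from wild type mice. All 9 arrays of the series entered the comparison. Every array held total RNA of the fraction that the labels call FrII, sorted for c-Kit and for low or positive Mac1 among cells lacking lineage markers and Sca-1, from mice of the C57/BL6 strain aged 2 to 4 months. Tissue is given as blood. Of the leukaemic arrays, 3 came from mice overexpressing Sox4 and 3 from K/L mice, which carry mutations in both Cebpa alleles. The sources used here do not say how Sox4 was overexpressed, which hosts or donors were used, or if arrays of a kind stem from different leukaemias. The p-values therefore cover only array-to-array spread, and it is not known how much of that is technical. The 3 Sox4 arrays differed in sex-linked signal, as given below, so they were not repeats of 1 RNA sample. The source names of the leukaemic samples add a CD45.1-negative, CD45.2-positive gate that those of the wild type samples lack, while the extraction text gives that gate for all.

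The FrII gate holds myeloid progenitors, cells that normally go on to make granulocytes and monocytes. C/EBPα, the product of Cebpa, is a transcription factor that drives granulocyte formation and restrains proliferation. Sox4 is a transcription factor of the SoxC family that is active in immature cells of many tissues. The comparison asked which expression changes were seen with both kinds of leukaemia, whichever of these factors was altered.

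Each of 18194 genes with exactly 1 symbol was read through its probe set of highest mean over the 9 arrays, and 12866 of them had at least 3 arrays above the 40th percentile of their own array and were tested. Values are log2 intensities, in which 1 unit is a 2-fold step, and levels of different genes cannot be set against each other. A difference is the mean of the 6 leukaemic arrays minus the mean of the 3 wild type arrays, given with the standard error of the limma fit. A gene was called, and is said to have risen or fallen, at a Benjamini-Hochberg adjusted p under 0.05 over all tested genes. Deposited values end at a floor of 3, and the 40th percentile of an array lay between 4.84 and 4.95, so that a level below it rests on little signal. In sorted but bulk RNA, fewer cells of a type and less RNA per cell cannot be told apart.

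Among the arrays, wild type array 3 stood apart from its group, with 404 and 500 tested genes over 2-fold away from the other wild type arrays, against 18 to 68 in all other pairs within a group. The ratio of 3' to 5' signal of the Gapdh control was 2.68 to 2.91 on the wild type arrays and 1.93 to 2.44 on the leukaemic arrays without overlap, while the actin ratio overlapped, at 0.885 to 0.976 and 0.866 to 0.915. The part of the Gapdh ratio in the results was not tested. Sox4 array 1 had signal of Xist (12.10) and little of the Y-linked gene Kdm5d (4.14), and Sox4 array 3 had both (11.63 and 9.01). The other 7 arrays had Kdm5d at 9.60 or more with Xist at 5.34 or less. Sex was thus not matched between leukaemic and wild type arrays, and its part in the results was not tested. Kit, the receptor of the gate, measured 9.17, 9.25 and 9.11 on the wild type arrays and 9.10 to 9.36 (median 9.15) on the leukaemic arrays, so that the groups overlapped. Itgam, which encodes the Mac1 antigen of the gate, lay between 3.70 and 4.99 on all 9 arrays and was too dim to be tested. The T cell genes Cd3e, Cd4 and Cd8a were not called, and Ptprc, which encodes CD45, fell by 0.46 ± 0.087 (adjusted p = 0.00266).

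Of 12866 tested genes, 4935 were called, which is 38.4 percent. They comprised 2817 genes that rose (21.9 percent) and 2118 that fell (16.5 percent). At least a 2-fold difference was reached by 918 of the rises (7.14 percent) and 673 of the falls (5.23 percent). All 6 leukaemic arrays lay above all 3 wild type arrays in 2807 genes (21.8 percent) and below them in 2182 (17.0 percent), or 38.8 percent in all, and 4509 of the 4935 called genes were without overlap. Call, 2-fold size and lack of overlap together held for 908 higher (7.06 percent) and 661 lower genes (5.14 percent). Both the leukaemias and the wild type samples enter 1 fit with 2 groups, so a gene that moved in 1 leukaemia only has a wide spread and tends not to be called. For 264 genes the pooled means differed at least 2-fold without a call, and in 253 of these K/L and Sox4 cells differed from each other (adjusted p under 0.05).

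Genes called and at least 2-fold apart from wild type were not all at one level in both leukaemias. Of 1591 such genes, 635 (39.9 percent) also differed between K/L and Sox4 cells, against 28.8 percent of all tested genes, and 270 of them did so at least 2-fold. The share was 33.8 percent among the 918 rises and 48.3 percent among the 673 falls. Their median absolute difference between the leukaemias was 0.30 for rises and 0.49 for falls on the log2 scale, against 0.22 over all tested genes. Of all 4935 called genes, whatever their size, 24.0 percent differed between K/L and Sox4 cells, with a median absolute difference of 0.20. A call itself favours genes with a small spread over the leukaemic arrays. Over all tested genes K/L cells were higher in 1896 and lower in 1813 of 3709 calls, a balance that turned to 2539 and 1464 with arrays centred on their medians.

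**Figure D1:**
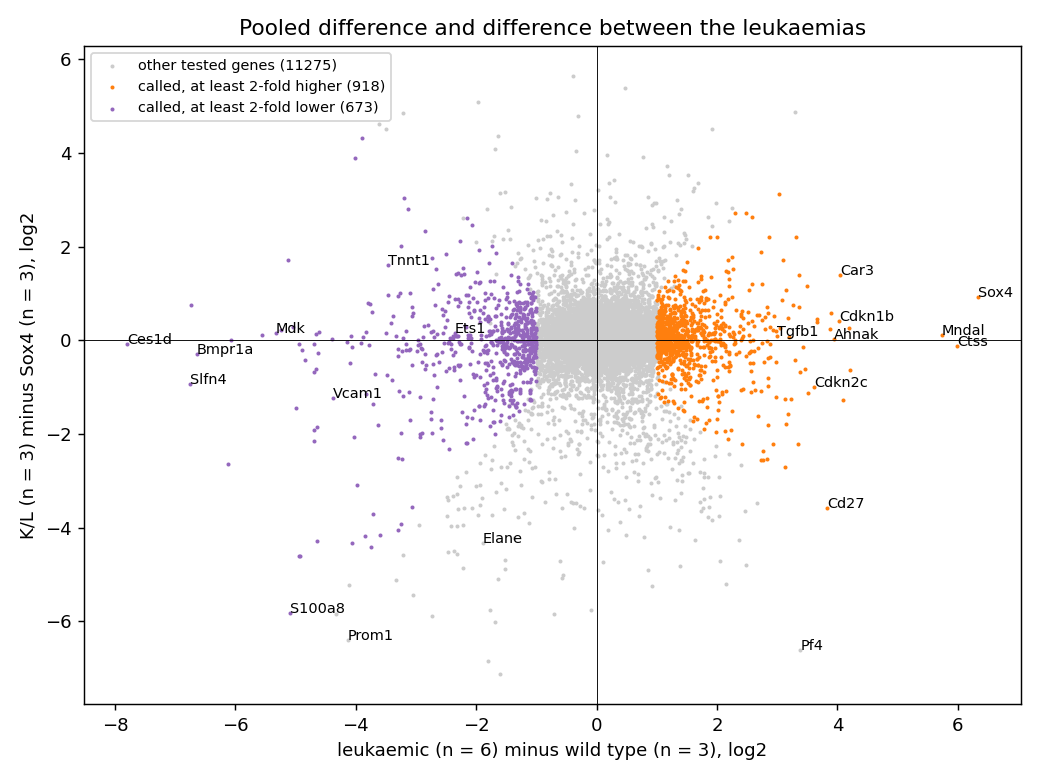
Each point is a tested gene, by the pooled leukaemic minus wild type difference (x axis, log2) and the K/L minus Sox4 difference (y axis, log2), with the 918 genes called at least 2-fold higher and the 673 called at least 2-fold lower in colour and 20 named genes labelled. Ctss, Mndal, Ces1d and Bmpr1a lie far from 0 on the x axis and near 0 on the y axis, while S100a8 and Cd27 also lie far from 0 on the y axis.

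Sox4 itself was high in both leukaemias by some of its probe sets and not by others. With the probe set of highest mean it measured 3.84, 3.81 and 3.97 on the wild type arrays and 9.61 to 10.87 (median 10.20) on the leukaemic arrays, a difference of 6.33 ± 0.28 (adjusted p = 1.06e-06). Sox4 cells averaged 9.74 and K/L cells 10.67, the higher of the leukaemias (K/L minus Sox4 0.93, adjusted p = 0.000258). The 8 probe sets of Sox4 did not move alike, and 2 others were higher by 3.05 and 3.95 in leukaemic cells. Those with wild type means of 8.33, 7.82 and 7.63 differed by only -0.47, -0.01 and 0.30, and the rest lay at or near the floor. With the mean of its probe sets the difference was 1.65. Cebpa, the gene mutated in K/L mice, measured 9.78, 9.67 and 9.31 in wild type and 10.47 to 10.66 (median 10.58) in leukaemic cells, a rise of 0.98 ± 0.11 (adjusted p = 0.000175), and averaged 10.58 in Sox4 and 10.56 in K/L cells. The related gene Cebpb, which takes over in emergency granulocyte formation, rose by 1.23 ± 0.20.

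Of 34 tested myeloid transcription factor genes 8 rose (23.5 percent), 9 fell (26.5 percent) and 17 were not called, against 21.9 and 16.5 percent of all tested genes, with a median difference of 0.19 against 0.05 over all tested genes. Gfi1b, a repressor that acts in red cell and platelet precursors, measured 5.23, 4.97 and 4.83 in wild type and 6.69 to 7.25 (median 7.05) in leukaemic cells (2.02 ± 0.15, adjusted p = 1.68e-05). Its granulocyte counterpart Gfi1 fell slightly, from 11.08, 11.20 and 10.94 to 10.26 to 10.64 (median 10.59) (-0.54 ± 0.11, adjusted p = 0.00395). The groups did not overlap for either gene. Runx3, a core-binding factor of lymphoid and myeloid cells, rose by 2.41 ± 0.31 and its relative Runx1 by 0.60 ± 0.13, while Myb, a factor of proliferating progenitors, fell by 0.59 ± 0.10 from a wild type mean of 12.44. Ets1, an ETS factor best known from lymphocytes, measured 10.03, 10.02 and 10.04 in wild type against 7.40 to 7.90 (median 7.69) in leukaemic cells, a fall of 2.36 ± 0.12 (adjusted p = 1.91e-06), and Ets2 fell by 0.94 ± 0.13. Id1 and Id2, inhibitors of basic helix-loop-helix factors, also fell, by 1.22 ± 0.20 and 1.48 ± 0.33. Irf8, the regulator that directs progenitors to monocytes, was far apart in the leukaemias (10.78 in Sox4 and 8.24 in K/L cells against 6.75 in wild type), and its pooled rise of 2.76 ± 0.81 (adjusted p = 0.0241) was not called without wild type array 3 (2.16, adjusted p = 0.111) or without Sox4 arrays 1 and 3 (2.13, adjusted p = 0.0627).

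Among the largest rises with signal on every array was Ahnak, which encodes a giant scaffold protein beneath the cell membrane. It measured 5.27, 5.19 and 5.03 on the wild type arrays and 8.85 to 9.40 (median 9.13) on the leukaemic arrays, a rise of 3.95 ± 0.13 (adjusted p = 1.51e-07), about 15.4-fold. The leukaemic arrays lay close together and far above wild type, with K/L and Sox4 means that differed by 0.028 (95 percent interval -0.31 to 0.36). Probe sets of a gene can disagree: with the mean of all probe sets the difference of Ahnak was 1.09, and 28 of the called genes named here moved by over 1.5-fold in this way while keeping their direction. In 16 of the 133 called genes named here at least 1 probe set had the opposite sign, and the stated direction is that of 1 of 3 probe sets for Il4ra, 5 of 11 for Ighm, 2 of 4 for Car3 and 1 of 2 for each of Alad and Nsg1. The other 11 are Ahnak, Cdt1, Cpox, Fech, Lyz1, Ms4a6d, Polr1a, Smad3, Sox4, Tgfbr2 and Zmiz1. Lgals3bp, a secreted binding partner of galectin-3, went from 5.67, 5.49 and 5.38 to 8.50 to 9.21 (median 8.77) (3.30 ± 0.16). Gpr171, a G protein-coupled receptor gene, rose by 3.05 ± 0.28, and the chemokine gene Ccl3 by 2.85 ± 0.32 from 5.64, 7.08 and 5.97 to 8.70 to 9.62 (median 8.97). Rgs1 and Ffar2, a regulator of G protein signalling and a receptor for short-chain fatty acids, rose by 3.10 ± 0.53 and 2.86 ± 0.63, with higher means in K/L than in Sox4 cells (10.01 against 8.29, and 10.58 against 8.38). Zmiz1, a coactivator gene, and Prrc2a rose by 2.95 ± 0.39 and 3.20 ± 0.39. In these last genes wild type array 3 was the low one, at 5.71 for Zmiz1 and 5.99 for Prrc2a, and without it the rises were 2.34 and 2.53.

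**Figure D2:**
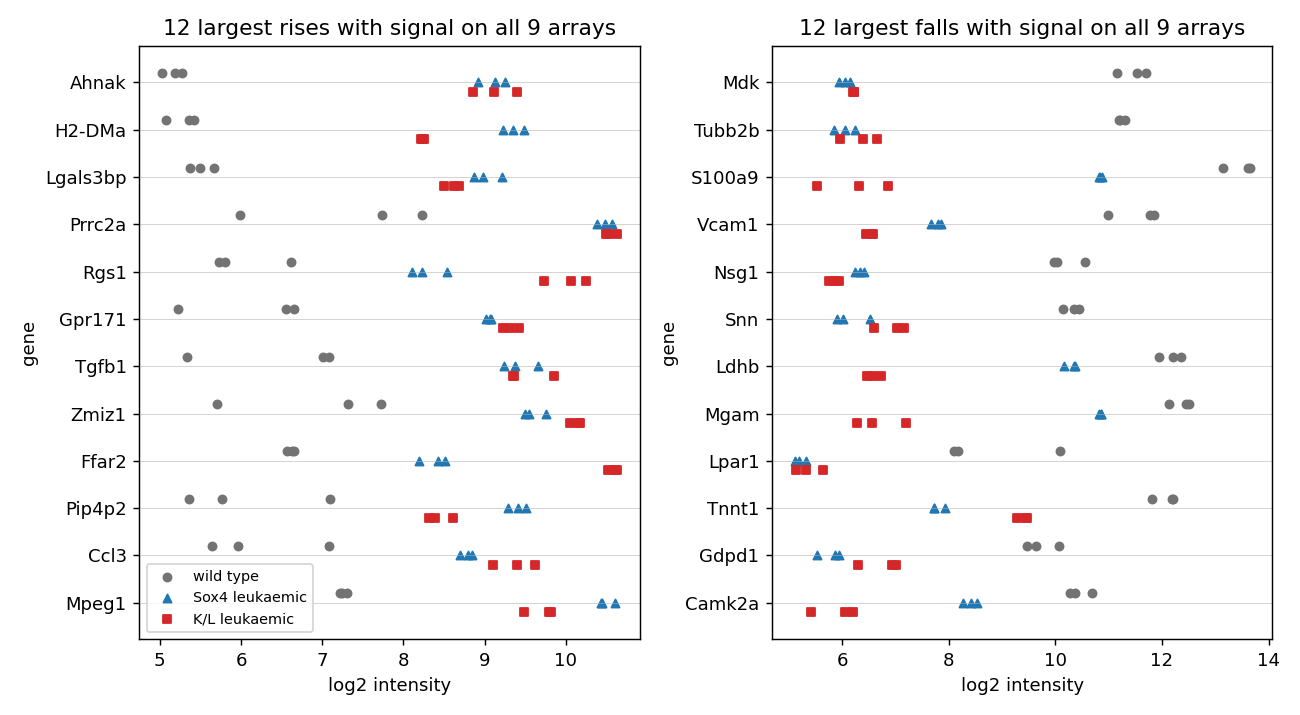
Values on each array (log2 intensity, x axis) of the 12 largest rises and 12 largest falls with signal on all 9 arrays, with grey circles for wild type, blue triangles for Sox4 and red squares for K/L arrays. The genes were picked from called genes without overlap of leukaemic and wild type arrays, leaving out uncharacterised transcripts and probe sets ending in _x_at. Separation of leukaemic from wild type arrays was thus fixed by the choice. The K/L and Sox4 arrays are apart without overlap in 19 of the 24 genes, all but Ahnak, Prrc2a, Tgfb1, Tubb2b and Lpar1.

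Other large rises had at least 1 array at or below its 40th percentile. Cdkn1b, the gene of the CDK inhibitor p27, measured 5.45, 5.43 and 4.27 in wild type and 8.74 to 9.44 (median 9.08) in leukaemic cells, a rise of 4.03 ± 0.27 (adjusted p = 9.5e-06). S100a4, a calcium-binding protein of motile cells, rose from 3.26, 3.12 and 3.23 to 6.70 to 7.55 (median 7.05) (3.90 ± 0.19). Lack of overlap between the groups was a condition for the choice of these large rises. In wild type cells S100a4 lay near the floor, and Cdkn1b was below the 40th percentile only on wild type array 3. Zfp507, a zinc finger gene, and Slc15a2, a peptide transporter gene, rose by 3.87 ± 0.19 and 3.67 ± 0.20. Car3, which encodes a carbonic anhydrase, rose by 4.04 ± 0.42, a direction shared by 2 of its 4 probe sets. For Cd27, a TNF receptor family gene of lymphoid and stem cells, the leukaemias differed, with means of 10.04 in Sox4 and 6.47 in K/L cells against 4.43. Its call (adjusted p = 0.0165) was lost without wild type array 2 (difference 3.59, adjusted p = 0.0622).

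Falls with signal on every array were led by Mdk, which encodes the heparin-binding growth factor midkine. It measured 11.15, 11.53 and 11.69 on the wild type arrays and 5.94 to 6.22 (median 6.18) on the leukaemic arrays, a fall of 5.32 ± 0.13 (adjusted p = 1.35e-08). Tubb2b, a beta-tubulin gene best known from neurons, went from 11.30, 11.22 and 11.18 to 5.85 to 6.67 (median 6.15), a fall of 5.04 ± 0.17. For both genes the gap between the groups was many times the spread within either. Vcam1, the adhesion molecule that binds the integrin VLA-4, went from 11.78, 11.84 and 10.98 to 6.46 to 7.86 (median 7.13) (fall 4.38 ± 0.39), and Lpar1, a receptor for lysophosphatidic acid, fell by 3.50 ± 0.39. Wild type array 3 was the high one for Lpar1 (10.10), and without it the difference was -2.85. Snn, Nsg1 and Gdpd1 fell by 3.77, 4.10 and 3.46, and Tnnt1, a troponin gene of slow muscle, by 3.47 ± 0.47 to 9.40 in K/L and 7.80 in Sox4 cells.

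Several of the largest falls ended with at least 1 leukaemic array at or below its 40th percentile, so that their size is uncertain. Ces1d, a carboxylesterase gene, measured 11.85, 12.09 and 12.02 in wild type and 4.05 to 4.39 (median 4.17) in leukaemic cells, a fall of 7.80 ± 0.10 (adjusted p = 2.61e-10). Bmpr1a, a type I receptor for bone morphogenetic proteins, went from 10.28, 10.42 and 10.62 to 3.57 to 4.08 (median 3.84) (fall 6.63 ± 0.13), a direction shared by all 6 of its probe sets, whose mean difference was -3.97. Hao1, a peroxisomal oxidase gene, and the Schlafen gene Slfn4 fell by 6.74 ± 0.32 and 6.76 ± 0.32. Ugt8a, which encodes a galactosyltransferase of lipid synthesis, measured 8.96, 8.84 and 9.41 in wild type cells and lay at the floor on all 6 leukaemic arrays, so that its fall of 6.07 is a lower limit. Tmeff1 and Ryr2, a transmembrane protein and a calcium release channel of heart muscle, fell by 5.56 ± 0.13 and 5.24 ± 0.14. Ces1d and Slfn4 belong to families of similar genes, whose transcripts a probe set may share.

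Among called genes without overlap and at least 4-fold from wild type, the rises with the smallest difference between K/L and Sox4 means were Mdfic, Jun, Setd1b, Fnip2 and Gfi1b. Setd1b, a histone H3 lysine methyltransferase gene, measured 8.58 in Sox4 and 8.57 in K/L cells against 6.03 in wild type (2.55 ± 0.19). Fnip2, whose product is a partner of folliculin, had 8.12 and 8.13 against 5.52. The 95 percent intervals of the K/L minus Sox4 difference were -0.50 to 0.48 for Setd1b, -0.41 to 0.43 for Fnip2, -0.38 to 0.38 for Mdfic and -0.39 to 0.37 for Gfi1b, so that differences of that size remain possible. For Jun the interval was -1.25 to 1.25, as its K/L arrays ran from 9.54 to 11.15. Among falls, Pcdhb16, a protocadherin gene, had 4.45 and 4.48 against 8.87, and Maob, which encodes monoamine oxidase B, joined Ugt8a at the floor on all 6 leukaemic arrays.

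Most tested genes of the MHC class II pathway rose in leukaemic cells. MHC class II molecules load peptides in endosomes, where cathepsins cut the invariant chain and DM proteins exchange its remnant for peptide. Of 10 tested members 9 rose, none fell and 1 was not called, with a median difference of 2.00 against 0.05 over all tested genes. In 7 of the 10 every leukaemic array lay above every wild type array, against 21.8 percent of all tested genes. The share of rises over all tested genes was 21.9 percent. Some members, such as Ctss and H2-Ob, passed the filter only through leukaemic arrays, while Ciita and Lgmn were too dim to be tested. With no filter 7 of 12 members rose. The rises numbered 5 without wild type array 1, 6 without wild type array 2 or Sox4 array 3, and 7 to 10 without any other single array. Ctss, which encodes cathepsin S, the protease that trims the invariant chain, measured 4.48, 4.46 and 3.48 on the wild type arrays and 9.83 to 10.23 (median 10.19) on the leukaemic arrays, a rise of 5.98 ± 0.21 (adjusted p = 2.19e-07). H2-DMa, a subunit of the peptide exchanger, went from 5.36, 5.08 and 5.42 to 8.21 to 9.48 (median 8.73) (3.50 ± 0.33), with means of 9.35 in Sox4 and 8.23 in K/L cells. Ifi30, the thiol reductase of the same compartment, went from 5.62, 5.49 and 4.78 to 7.91 to 8.87 (median 8.41) (3.09 ± 0.30). In all 3 genes every leukaemic array lay well above the highest wild type array. H2-Oa and H2-Ob, which encode the DM inhibitor, rose by 2.39 ± 0.24 and 2.13 ± 0.25, and the invariant chain gene Cd74 averaged 4.98 in wild type against 6.39 in Sox4 and 5.62 in K/L cells, with no call (adjusted p = 0.0517), though it was called with arrays centred on their medians.

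Of 22 tested lysosomal genes 11 rose, 2 fell and 9 were not called (median 0.41). The shares of rises and falls over all tested genes were 21.9 and 16.5 percent. K/L and Sox4 cells differed from each other in 11 of the 22. Leaving out 1 array at a time gave 8 to 11 rises, with 8 without wild type array 2 or 3. Psap, the precursor of saposins that help digest sphingolipids, rose by 1.30 ± 0.25, and Ctsc, the protease that activates granule proteases, by 1.25 ± 0.21. Neu1, which encodes the lysosomal sialidase, went the other way, from 9.42, 9.68 and 8.93 to 7.71 to 8.12 (median 8.01) (fall 1.36 ± 0.16, adjusted p = 0.000212), and Ctsl fell by 0.73 ± 0.16.

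Interferon-inducible genes of the p200 family, whose proteins bind DNA in nucleus or cytosol, had 2 rises and 1 fall among 5 tested members. There were 4 rises without wild type array 2 or with arrays centred on their medians, and with no filter 2 of 8 members rose. Shares over all tested genes were 21.9 percent higher and 16.5 percent lower. Mndal measured 3.34, 3.37 and 3.48 in wild type and 8.86 to 9.21 (median 9.18) in leukaemic cells, a rise of 5.73 ± 0.10 (adjusted p = 2.25e-09), with -0.11 to 0.36 as the 95 percent interval of K/L minus Sox4. Its probe set ends in _x_at and may bind transcripts of similar genes, so part of this signal may belong to relatives. Ifi209 rose by 4.09 ± 0.53 from 6.42, 6.02 and 4.32, where wild type array 3 was low and the rise without it was 3.46. Aim2, the sensor of cytosolic DNA in the same family, fell instead, by 0.75 ± 0.18. Of 19 tested interferon-stimulated genes 11 rose (57.9 percent), none fell and 8 were not called (median 0.59). Without wild type array 1 or 3 the rises numbered 7, and with no filter 9 of 21 members rose. Some members, such as Oasl2, passed the filter only through leukaemic arrays, while Ifit1 and Usp18 were too dim to be tested. K/L and Sox4 cells differed from each other in 8 of the 19. Oas1a and Oasl2, of the antiviral oligoadenylate synthetase family, rose by 2.08 ± 0.42 and 2.26 ± 0.53, each higher in Sox4 than in K/L cells (9.04 against 7.90, and 7.15 against 5.64). Xaf1, a proapoptotic interferon target, had means of 8.10 and 8.11 in them against 6.60 in wild type.

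Start-site regions of Ctss and Mndal, which had the largest rises in these groups, are shown with that of Slfn4, a large fall, because each holds letters of a motif that was looked for. Mndal has 2 such windows in the table, of which the first is given. They run from 250 bases before to 50 bases after the start site, 5′ to 3′ on the gene's strand, and come from RefSeq on GRCm38.p6. Capitals mark every match to the interferon response element, GAGGAAGT (PU.1 site), ACAAAG or AACAAT (SOX cores), TTGCNNAA or TTGCGCAA (C/EBP) and CACGTG (E-box), searched on both strands; TTGCGCAA is a special case of TTGCNNAA.
Ctss, chr3:95526536-95526835, + strand: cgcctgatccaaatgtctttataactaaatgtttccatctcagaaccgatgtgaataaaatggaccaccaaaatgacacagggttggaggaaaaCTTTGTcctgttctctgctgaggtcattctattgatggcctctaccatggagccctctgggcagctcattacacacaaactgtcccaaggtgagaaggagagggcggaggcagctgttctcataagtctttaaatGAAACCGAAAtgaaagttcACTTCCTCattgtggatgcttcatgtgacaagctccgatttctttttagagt
Mndal, chr1:173880138-173880437, - strand: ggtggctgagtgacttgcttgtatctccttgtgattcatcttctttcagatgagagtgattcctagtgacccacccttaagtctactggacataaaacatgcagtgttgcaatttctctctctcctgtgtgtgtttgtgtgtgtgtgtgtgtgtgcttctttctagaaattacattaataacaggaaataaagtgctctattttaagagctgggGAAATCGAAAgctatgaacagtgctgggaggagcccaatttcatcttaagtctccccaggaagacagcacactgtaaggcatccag
Slfn4, chr11:83174936-83175235, + strand: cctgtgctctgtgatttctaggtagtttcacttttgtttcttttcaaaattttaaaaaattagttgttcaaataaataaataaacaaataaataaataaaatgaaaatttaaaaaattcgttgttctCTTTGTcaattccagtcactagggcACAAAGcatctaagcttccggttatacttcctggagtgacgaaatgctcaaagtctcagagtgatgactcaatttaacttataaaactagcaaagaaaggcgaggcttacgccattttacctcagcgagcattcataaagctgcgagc
The Ctss window held the interferon response element, GAGGAAGT and ACAAAG once each, that window of Mndal held the interferon response element once, and that of Slfn4 held ACAAAG at 2 places. Over the 13262 windows of tested genes, 2.93 percent held the interferon response element, 3.16 percent GAGGAAGT and 14.5 percent ACAAAG. The letters ACAAAG were held by 10.5 percent of the 978 windows of genes that rose at least 2-fold without overlap. Of the 687 windows of genes that fell in this way, 22.0 percent held them. For the interferon response element these shares were 4.29 and 2.18 percent, and for GAGGAAGT 2.45 and 2.91 percent. For AACAAT they were 4.7 and 7.86 percent (6.08 in all windows of tested genes), and for TTGCNNAA 9.2 and 8.59 percent (8.59). For TTGCGCAA they were 0.204 and 0.146 percent (0.249), and for CACGTG 6.54 and 9.32 percent (9.6). Windows were at hand for 747 of the 908 rises (82.3 percent) and 524 of the 661 falls (79.3 percent). The latter share is under the coverage set for such a check, which is therefore void for the falls. The median GC content was 61.3 percent in windows of rises, 59.3 percent in those of falls and 60.3 percent in all. These matches describe letters only.

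**Figure D3:**
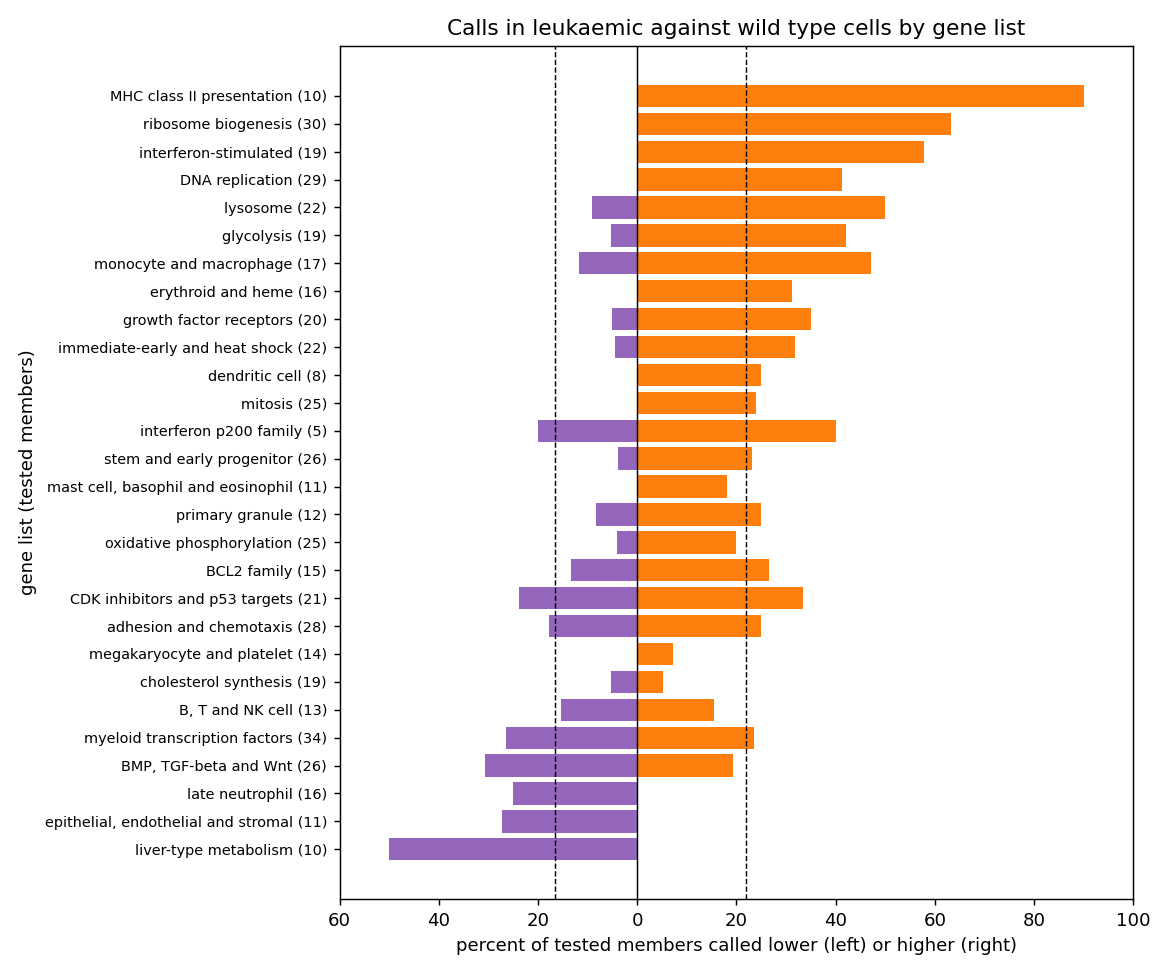
For 28 gene lists, the bars give the percent of tested members called higher (right) and lower (left) in leukaemic cells, with dashed lines at the shares of all tested genes (21.9 percent higher, 16.5 percent lower). MHC class II presentation and ribosome biogenesis genes have the longest bars to the right. Liver-type metabolism genes have the longest to the left, in a list drawn up with some of its falls already known.

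Of 17 tested monocyte and macrophage genes 8 rose (47.1 percent), 2 fell (11.8 percent) and 7 were not called, with a median of 1.28. Over all tested genes 21.9 percent rose and 16.5 percent fell. K/L and Sox4 cells differed from each other in 13 of the 17. Among them Cd68 was higher in K/L and Mpeg1 in Sox4 cells (K/L minus Sox4 0.77 and -0.79). Cd68, a lysosomal protein of macrophages, measured 6.60, 6.94 and 6.03 in wild type and 8.16 to 9.16 (median 8.65) in leukaemic cells (2.13 ± 0.28, adjusted p = 0.000433), and Mpeg1, a pore-forming protein of macrophages, went from 7.30, 7.24 and 7.22 to 9.49 to 10.60 (median 10.13) (2.84 ± 0.25). The membrane protein genes Ms4a6c and Ms4a6d rose by 2.11 ± 0.29 and 1.92 ± 0.18, and Cd14, the lipopolysaccharide coreceptor gene, by 1.28 ± 0.19. Both falls were lysozyme genes, Lyz1 by 1.20 ± 0.20 and Lyz2 by 1.22 ± 0.19, from wild type means of 12.27 and 12.44. These genes are near-identical copies, so their signals cannot be told apart. Csf1r, the M-CSF receptor gene, was not called, with 11.22 in Sox4 and 9.49 in K/L cells against 9.60 in wild type.

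Neutrophils store antimicrobial proteins in primary granules, formed early, and in granules formed late. Among 12 tested primary granule genes 3 rose (25 percent), 1 fell (8.33 percent) and 8 were not called (median -0.02), against 21.9 percent higher and 16.5 percent lower over all tested genes. Mpo, which encodes myeloperoxidase, measured 13.96, 13.84 and 13.83 in wild type and 13.77 to 13.93 (median 13.85) in leukaemic cells, and the groups overlapped. Prtn3, which encodes proteinase 3, rose by 0.65 ± 0.12 and Cst7, a cystatin gene, by 1.30 ± 0.11, while Mgst1, a glutathione transferase gene, fell by 1.57 ± 0.19. Elane, which encodes neutrophil elastase, was lower in K/L cells (8.80 against 13.12 in Sox4 and 12.85 in wild type cells) and was not called (adjusted p = 0.263). Among 16 late neutrophil genes none rose, 4 fell (25 percent) and 12 were not called (median 0.00, or -0.43 without wild type array 3). The falls numbered 1 without wild type array 1 and 2 without wild type array 2. Of these genes, 14 of the 16 differed between K/L and Sox4 cells. S100a8 and S100a9, whose products form calprotectin, measured 12.64 and 13.47 in wild type, 10.45 and 10.85 in Sox4, and 4.64 and 6.24 in K/L cells. Pooled falls were 5.10 ± 1.66 (adjusted p = 0.0371) and 4.93 ± 1.34 (adjusted p = 0.0168). The S100a8 call was lost without any 1 of the 3 wild type arrays (differences -5.14, -5.00 and -5.16, adjusted p = 0.0935, 0.0996 and 0.0949) or any 1 of the 3 K/L arrays (-4.53, -4.44 and -4.58, adjusted p = 0.0617, 0.0575 and 0.0632) and with no filter (adjusted p = 0.0626), and that of S100a9 without wild type array 1 or 2 (-4.85 and -4.84, adjusted p = 0.0562 and 0.0554).

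Most tested ribosome biogenesis genes rose. They make, process and assemble ribosomal RNA in the nucleolus, under the control of Myc. Of 30 tested members of the list, Myc and Srm among them, 19 rose (63.3 percent), none fell and 11 were not called. The median was 0.56, and 3 members differed between K/L and Sox4 cells. With the mean of all probe sets 20 members rose and 2 fell. The share of rises over all tested genes was 21.9 percent. Myc measured 11.21, 11.29 and 10.85 in wild type and 12.01 to 12.28 (median 12.09) in leukaemic cells, a rise of 0.99 ± 0.11 (adjusted p = 0.000185). Polr1a, the largest subunit of RNA polymerase I, rose by 1.49 ± 0.21, and Ubtf, the factor that brings it to ribosomal DNA, by 1.32 ± 0.16. Nolc1, a nucleolar chaperone, went from 10.13, 10.27 and 9.82 to 11.14 to 11.51 (median 11.37) (1.26 ± 0.12), and Rrp9, a part of the U3 processing complex, from 6.32, 6.39 and 6.17 to 7.22 to 7.51 (median 7.35) (1.05 ± 0.092). Each of these genes was higher on all 6 leukaemic arrays than on any wild type array. Srm, which makes spermidine and is a Myc target, rose by 1.46 ± 0.18. Npm1, which encodes the nucleolar protein nucleophosmin, was not called, with group means of 13.29 (wild type), 13.31 (Sox4) and 13.26 (K/L).

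**Figure D4:**
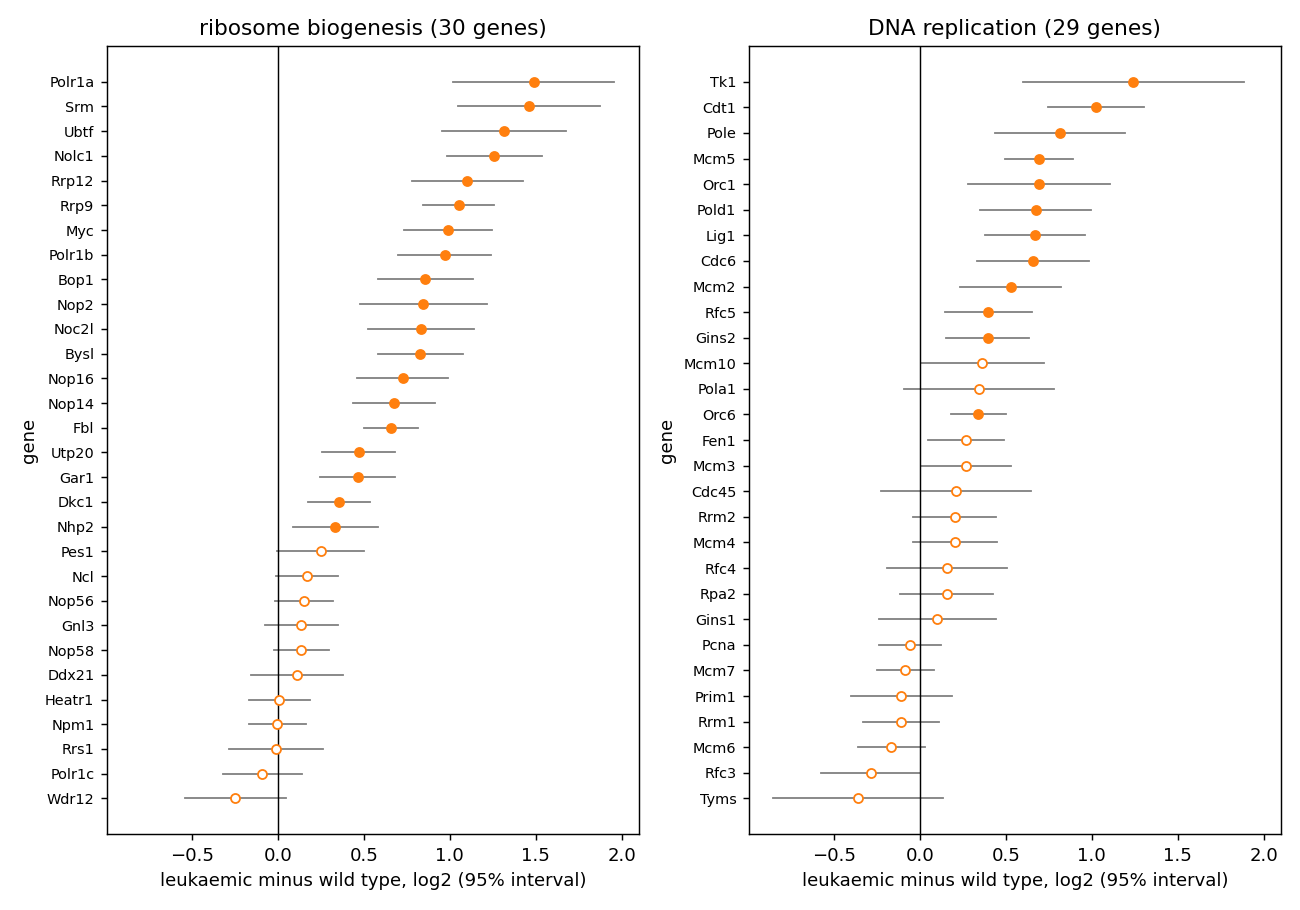
Leukaemic minus wild type difference (log2, points) with its 95 percent interval (bars) for every tested member of the ribosome biogenesis and DNA replication lists, filled where called. In the first list 19 of 30 genes are called and in the second 12 of 29, and no called gene lies left of 0.

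Of 29 tested DNA replication genes 12 rose (41.4 percent), none fell and 17 were not called (median 0.27), and 1 fell without Sox4 array 2. Over all tested genes 21.9 percent rose. Cdt1, which licenses replication origins, went from 10.38, 10.38 and 9.87 to 11.13 to 11.36 (median 11.25) (1.03 ± 0.12, adjusted p = 0.000251), and Mcm5, a subunit of the replicative helicase, rose by 0.69 ± 0.087. Thymidine kinase Tk1 rose by 1.24 ± 0.28, with more in Sox4 than in K/L cells (9.43 against 8.52). The replication genes Mcm6, Mcm7 and Pcna were not called, at differences of -0.17 ± 0.086, -0.083 ± 0.073 and -0.057 ± 0.08. Mitosis genes had 6 rises, no fall and 19 without a call among 25 (median 0.15), a share of rises (24.0 percent) close to that of all tested genes. Mki67, the proliferation antigen gene, rose by 1.10 ± 0.20 and Aurkb, a mitotic kinase gene, by 0.89 ± 0.17, and 18 of the 25 differed between the leukaemias.

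Glycolysis genes had 8 rises (42.1 percent), 1 fall (5.26 percent) and 10 without a call among 19 (median 0.55). For all tested genes the shares were 21.9 and 16.5 percent. Hk1, a hexokinase that starts the pathway, measured 7.07, 6.50 and 5.83 in wild type and 8.62 to 8.84 (median 8.73) in leukaemic cells (2.27 ± 0.22, adjusted p = 7.29e-05), and Pfkl, a subunit of its rate-setting enzyme, rose by 1.66 ± 0.16 from 8.51, 8.59 and 7.87 to 9.82 to 10.23 (median 9.97). Both genes were clear of wild type on every leukaemic array. Ldha, which makes the muscle-type lactate dehydrogenase subunit, rose by 0.65 ± 0.11, while the heart-type subunit gene Ldhb averaged 12.17 in wild type against 10.30 in Sox4 and 6.60 in K/L cells. The pooled fall of Ldhb (adjusted p = 0.0209) was lost without wild type array 1, 2 or 3 (differences -3.84, -3.70 and -3.63, adjusted p = 0.0567, 0.063 and 0.069). The fall among glycolysis genes is Ldhb. Oxidative phosphorylation genes had 5 rises and 1 fall among 25 (median 0.11). Their share of rises was close to that of all tested genes (21.9 percent). The rises numbered 2 without wild type array 2, 3 without wild type array 1 or any 1 of the Sox4 arrays, and 9 with arrays centred on their medians, and the fall was lost without wild type array 2 or 3. Cholesterol synthesis genes had 1 rise and 1 fall among 19 (median 0.17), or 4 rises without Sox4 array 2, 2 rises without wild type array 2 and 3 falls without Sox4 array 1, the rise being Ebp (0.93 ± 0.11) and the fall Hsd17b7 (0.70 ± 0.15).

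Besides Cdkn1b, the inhibitor gene Cdkn2c, which encodes the CDK4 and CDK6 inhibitor p18, measured 4.94, 4.99 and 4.53 in wild type and 7.71 to 9.04 (median 8.46) in leukaemic cells (3.61 ± 0.31, adjusted p = 3.99e-05). Cdkn1c, which encodes p57, fell by 1.37 ± 0.21, with 5.31 in Sox4 and 5.33 in K/L cells against 6.69. Gadd45a, a growth arrest gene induced by p53, went from 9.28, 9.30 and 9.04 to 7.89 to 8.07 (median 8.03) (fall 1.21 ± 0.089, adjusted p = 1.68e-05), and Mdm2, the p53 ubiquitin ligase gene, fell by 0.65 ± 0.092. Ccng1, another p53 target, rose by 0.63 ± 0.11. In the list of CDK inhibitors and p53 targets 7 of 21 tested members rose (33.3 percent), 5 fell (23.8 percent) and 9 were not called (median 0.39). Shares over all tested genes were 21.9 percent higher and 16.5 percent lower. The rises numbered 4 without wild type array 1 or 3, and the falls 3 without any 1 of the wild type arrays.

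Among 15 tested BCL2 family genes 4 rose (26.7 percent), 2 fell (13.3 percent) and 9 were not called (median 0.00). Both shares were near those of all tested genes, 21.9 and 16.5 percent. The falls numbered 1 without wild type array 1, wild type array 3 or Sox4 array 1, and none without wild type array 2. Bak1 and Bad, which promote cell death, rose by 1.04 ± 0.15 and 0.59 ± 0.11, with 95 percent intervals of K/L minus Sox4 of -0.35 to 0.42 and -0.28 to 0.27. Bcl2, which opposes it, averaged 9.43 in wild type, 10.23 in K/L and 11.55 in Sox4 cells, and its pooled rise of 1.45 ± 0.39 (adjusted p = 0.0169) was lost without wild type array 1 or 2 (differences 1.36 and 1.38, adjusted p = 0.0653 and 0.061) and with the mean of probe sets (1.30, adjusted p = 0.0507). Mcl1, another survival gene, was not called, with group means of 11.26 (wild type), 11.23 (Sox4) and 11.14 (K/L).

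Signalling by the TGF-beta superfamily runs from ligands through type I and II receptors to SMAD proteins. Together with Wnt genes, 5 of 26 tested members rose (19.2 percent), 8 fell (30.8 percent) and 13 were not called (median -0.09), and 3 rose without wild type array 3. Over all tested genes 21.9 percent rose and 16.5 percent fell. The ligand gene Tgfb1 measured 7.08, 7.0 and 5.33 in wild type and 9.24 to 9.85 (median 9.37) in leukaemic cells, a rise of 3.0 ± 0.35 (adjusted p = 0.000212) that was 2.43 without wild type array 3. Its type II receptor gene Tgfbr2 rose by 1.19 ± 0.14. On the BMP and activin side, Bmpr1a fell as given above and Acvr2a, an activin type II receptor gene, by 1.37 ± 0.22. The signal transducers Smad2, Smad3 and Smad4 fell by 0.35, 0.42 and 0.46, each below wild type on all 6 leukaemic arrays, though Smad3 was not called with the mean of its probe sets (-0.22, adjusted p = 0.0583).

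Growth factor receptor genes had 7 rises (35 percent), 1 fall (5 percent) and 12 without a call among 20 (median 0.68). For all tested genes the shares were 21.9 and 16.5 percent. Csf2ra, the GM-CSF receptor alpha chain gene, measured 7.01, 6.81 and 6.38 in wild type and 9.08 to 9.93 (median 9.38) in leukaemic cells (2.69 ± 0.21, adjusted p = 2.34e-05). The interleukin receptor genes Il6ra, Il4ra and Il3ra rose by 1.43 ± 0.18, 1.43 ± 0.13 and 0.91 ± 0.13, that of Il4ra shared by 1 of its 3 probe sets, and Ifngr1, an interferon gamma receptor gene, fell by 0.62 ± 0.10. Adhesion and chemotaxis genes had 7 rises (25 percent) and 5 falls (17.9 percent) among 28 (median 0.41), near the shares of all tested genes, and 2 falls without wild type array 1. Selplg, the selectin ligand PSGL-1, rose by 2.40 ± 0.38, and the leukotriene receptor gene Cysltr1 by 3.32 ± 0.65 with 5.88 in Sox4 and 8.09 in K/L cells. Cd44, the hyaluronan receptor gene, fell with Vcam1, by 0.75 ± 0.12.

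In a list of immediate-early genes, which respond to stimulation of cells within minutes, and heat shock genes, 7 of 22 tested members rose (31.8 percent), 1 fell and 14 were not called (median 0.55), and 2 fell without wild type array 3. Shares over all tested genes were 21.9 percent higher and 16.5 percent lower. The immediate-early genes Atf3 and Nr4a1 were too dim to be tested. Fos measured 7.0, 8.25 and 8.52 on the wild type arrays and 9.79 to 11.70 (median 10.55) on the leukaemic arrays (2.79 ± 0.46, adjusted p = 0.00141). Jun had 7.99, 9.43 and 7.09 and 9.54 to 11.15 (median 10.66), with wild type array 2 highest among its group (2.39 ± 0.49, and 3.02 without that array). Fosb and Egr1 rose by 3.36 ± 0.52 and 3.23 ± 0.68, and the inducible heat shock gene Hspa1b by 4.19 ± 0.64 with 5.70 to 9.35 (median 7.70) on the leukaemic arrays. Although the groups did not overlap, K/L array 3 lay over 2-fold below the other K/L arrays for Fos, Fosb, Jun, Egr1 and Hspa1b. Ier3 fell by 1.08 ± 0.24. Hspa8, a constitutive heat shock gene, was not called (0.088 ± 0.083).

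**Figure D5:**
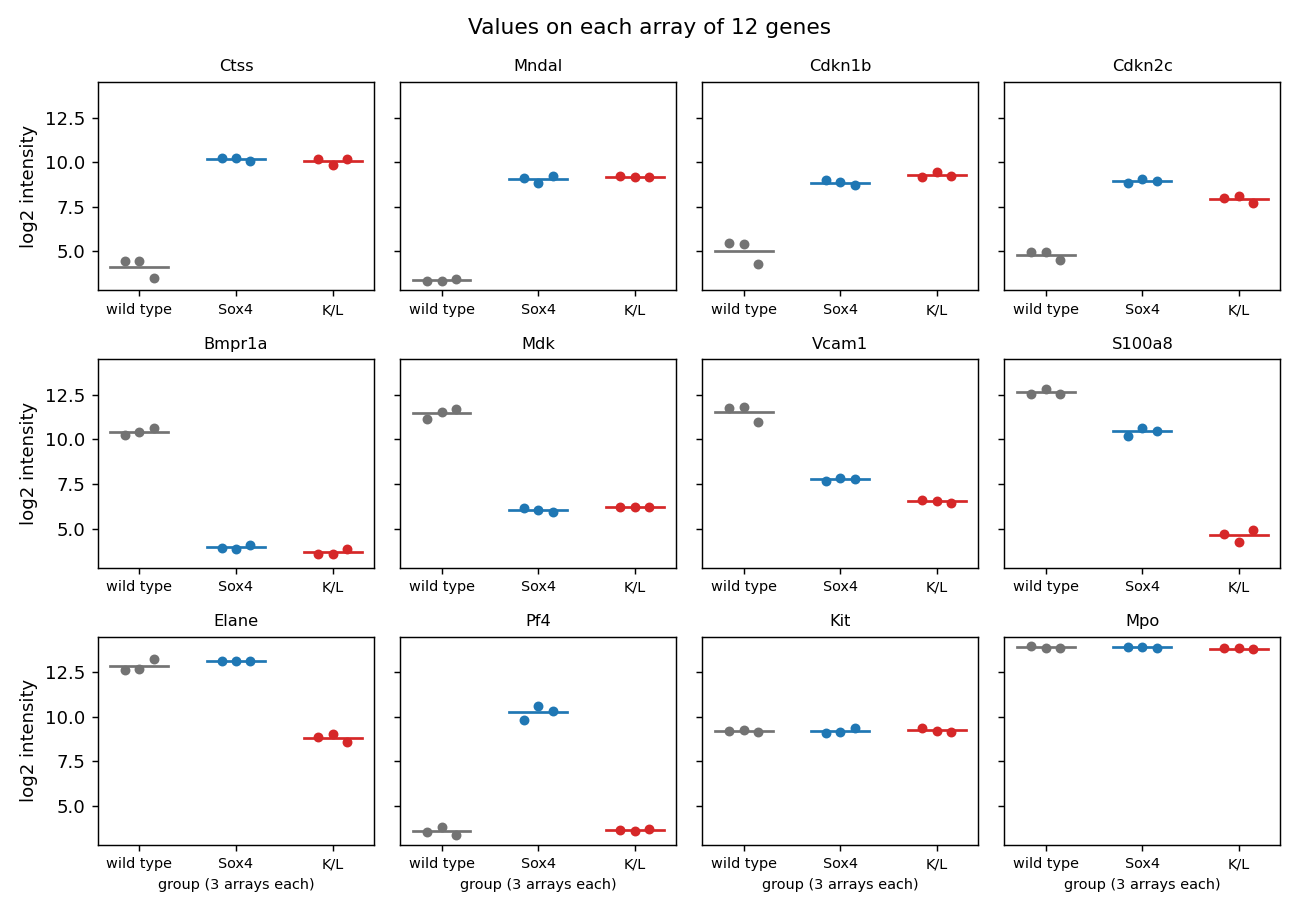
Log2 intensity of 12 genes on each of the 9 arrays (points) with group means (lines), from left wild type (grey), Sox4 (blue) and K/L (red). Ctss, Mndal, Cdkn1b and Cdkn2c are high and Bmpr1a and Mdk low in both leukaemias, and the K/L and Sox4 arrays are apart without overlap in 9 of the 12 genes, all but Ctss, Mndal and Kit.

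Genes of other blood lineages are read against 21.9 percent higher and 16.5 percent lower over all tested genes. Among 16 tested erythroid and heme genes 5 rose (31.2 percent) and none fell, or 1 fell without Sox4 array 1, and the rises were Tfr2, an iron-sensing receptor gene, at 3.42 ± 0.16, with Cpox, Alad, Fech and Urod of heme synthesis at 1.32 ± 0.14, 0.97 ± 0.15, 0.69 ± 0.19 and 0.53 ± 0.12. Fech was not called without wild type array 1 or 3 (adjusted p = 0.0643 and 0.0699) or with the mean of its probe sets (0.37, adjusted p = 0.188). The globin gene Hba-a1 was not called, with group means of 5.25 (wild type), 5.38 (Sox4) and 5.47 (K/L). Among 14 megakaryocyte and platelet genes Selp, which encodes P-selectin, rose (1.81 ± 0.26) and none fell, or 1 fell without K/L array 1 or 3, while Pf4 had 10.24 in Sox4 but 3.64 in K/L and 3.56 in wild type cells and was not called (adjusted p = 0.19). Among 11 mast cell, basophil and eosinophil genes 2 rose (18.2 percent), Gata2 (1.16 ± 0.21) and Prg2, which encodes the eosinophil major basic protein (3.34 ± 0.67), and 4 rose without Sox4 array 1. Among 13 B, T and NK cell genes Ighm and Cd79b, of the B cell receptor, rose by 1.62 ± 0.17 and 1.64 ± 0.18, that of Ighm shared by 5 of its 11 probe sets. In this list 2 genes fell, but none without wild type array 2 or Sox4 array 2 and 1 without any other single array. The mean level over the tested members ranged over arrays from 5.96 to 6.02 in wild type, 7.20 to 7.47 in Sox4 and 5.80 to 5.94 in K/L cells for the platelet list. It ranged from 6.18 to 6.37, 7.61 to 7.65 and 6.70 to 6.74 for the erythroid list, and from 5.84 to 6.0, 5.97 to 6.16 and 6.24 to 6.26 for the lymphoid list. The part of such cells in the other results was not tested.

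Stem and early progenitor genes had 6 rises (23.1 percent), 1 fall and 19 without a call among 26 (median 0.75). Over all tested genes 21.9 percent rose and 16.5 percent fell, so this share of rises was close to the general one. There was no fall without wild type array 2, and 19 of the 26 differed between K/L and Sox4 cells. Meis1 and Hoxa9, homeobox genes of myeloid leukaemia, had 7.68 and 7.32 in Sox4 but 4.30 and 5.44 in K/L and 4.21 and 5.61 in wild type cells, and neither was called. Prom1, the prominin gene, had 3.18 in K/L, 9.59 in Sox4 and 10.52 in wild type cells, also without a call (adjusted p = 0.106). Among 11 tested epithelial, endothelial and stromal genes none rose, or 1 without wild type array 2, and 3 fell, of which Epcam fell by 1.56 ± 0.29 and Krt18 by 1.27 ± 0.22. The list of liver-type metabolism genes was drawn up with the falls of Ces1d, Hao1 and Ugt8a already known. Of its 10 tested members 5 fell (median -2.02), or 3 without wild type array 1 or 2. Ces1d, Hao1 and Ugt8a passed the filter only through wild type arrays, and with no filter 4 of 18 members fell (median -0.06). The liver genes Alb, Apoa1, Ttr, Tat and Apoa2 were not called. Alb, which encodes albumin, measured 4.84, 5.28 and 5.16 in wild type and 4.77 to 5.33 (median 5.11) in leukaemic cells.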

How the data were processed

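Total RNA of each sample was hybridised to 1 Affymetrix mouse array. The authors deposited linear probe set intensity values that end at a floor of 8. RMA is named per the submitters' processing notes, and the sources used here give neither its version nor any further scaling. Values were used as deposited, as log2. Of 45101 probe sets, 34958 have exactly 1 symbol in the platform annotation, 932 have several and 9211 have none. The 6 leukaemic arrays were compared as 1 group with the 3 wild type arrays with limma 3.58.1 (R 4.3.3, lmFit and eBayes, 7 residual degrees of freedom), adjusted over 12866 genes, and K/L with Sox4 cells in a fit of 3 groups. The procedure was tested on simulated data. No depth exists for arrays, so their number limits the precision.

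The members and gene lists were chosen with earlier results of these data known. Named genes are the 12 largest rises and falls with signal on all arrays, the 10 largest of the rest, the 5 most even in each direction and, of each list, up to 4 members of smallest p and 2 of largest size in each direction, all without overlap where not from a list. Another 35 list members were named after their values were seen: Acvr2a, Alb, Apoa1, Ccng1, Cd14, Cd74, Cdkn1c, Cebpb, Csf1r, Ets2, Fech, Gfi1, H2-Ob, Hba-a1, Hoxa9, Hspa8, Id1, Id2, Lyz1, Mcl1, Mcm6, Mcm7, Meis1, Mpo, Ms4a6c, Myb, Npm1, Pcna, Psap, Runx1, Runx3, Smad2, Smad3, Ttr and Ubtf. Uncharacterised transcripts and probe sets ending in _x_at, which may bind similar genes, were left out of the picks outside the lists. Mndal, Tfr2 and Urod, as list members, were read through such probe sets. Alternatives were other scalings, filters, probe set rules, priors, a replicate block, a fit of 3 groups and leaving out arrays.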

Additional observations from a re-analysis of the deposited data

Results flagged for a closer look

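Within the group of 6 leukaemic arrays, a single array lay far from the other 5 for 3 of the 157 tested genes named here. Its gap to the nearest array, as a share of the group's range, was over Dixon's 95 percent critical value for 6 samples, which chance alone passes in about 1 group of 20. Gfi1 was low on K/L array 1 (10.26), Mndal was low on Sox4 array 2 (8.86), and Neu1 was low on Sox4 array 1 (7.71). All 3 genes were called without each array in turn.

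The leukaemias differed from each other, at a limma adjusted p under 0.05 for the K/L minus Sox4 contrast, in 51 of the named genes, so that the pooled difference is a mean of unequal levels there. The K/L minus Sox4 difference (log2, 3 arrays against 3) is given for each. Among genes that rose in the pooled comparison it was Cd27 -3.57, Irf8 -2.55, Prg2 -2.21, Oasl2 -1.50, Bcl2 -1.32, Oas1a -1.14, H2-DMa -1.12, Selplg -1.06, Cdkn2c -1.0, Tk1 -0.91, Psap -0.84, Mpeg1 -0.79, Ctsc -0.71, Cd79b -0.52, Mki67 -0.50, Aurkb -0.49, Lgals3bp -0.42, Polr1a 0.53, Csf2ra 0.55, S100a4 0.59, Fech 0.61, Cd68 0.77, Ifi30 0.87, Sox4 0.93, Car3 1.41, Rgs1 1.72, Cysltr1 2.21 and Ffar2 2.21. Among genes that fell in it, it was S100a8 -5.81, S100a9 -4.61, Ldhb -3.70, Camk2a -2.51, Vcam1 -1.24, Slfn4 -0.94, Lyz1 -0.63, Krt18 -0.62, Id1 -0.59, Lyz2 -0.58, Mgst1 -0.52, Nsg1 -0.48, Ier3 0.60, Snn 0.79, Id2 0.92, Gdpd1 0.97 and Tnnt1 1.60. Among genes without a call in it, it was Pf4 -6.61, Prom1 -6.41, Elane -4.32, Meis1 -3.39, Hoxa9 -1.87 and Csf1r -1.72.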

How the results depend on the processing

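The counts of called genes, of called genes at least 2-fold apart and of genes without overlap stayed within 1.5 times the reported count under every alternative run. Leaving out 1 array at a time gave 3957 to 4696 called genes, 1358 to 1636 at least 2-fold apart, 5172 to 6040 without overlap, and 2794 to 4751 that differed between K/L and Sox4 cells. Without Sox4 arrays 1 and 3, an alternative chosen after seeing the data, 1514 genes differed between K/L and Sox4 cells, with 1 Sox4 array left that is assumed to vary like the others. A fit of 3 groups called 6751 genes, among them all 4935 reported. Same-numbered arrays did not deviate together (correlations of -0.022 to 0.078), so the numbers do not pair them. With the replicate number as a block, 4214 genes were called, 1493 at least 2-fold, and 3511 differed between K/L and Sox4 cells, and of the named genes Irf8, Ldhb and S100a8 were no longer called. No named gene that was called changed direction under the alternatives run. Cd74 passed the threshold with centred or quantile-normalized arrays, the stricter filter, the mean of probe sets, the trended prior, the fit of 3 groups, and without K/L array 2 or 3, and Hspa8 with the mean of probe sets. The fit of 3 groups also called Apoa2, Csf1r, Elane, Hoxa9, Meis1, Pf4 and Prom1, and Prom1 was called without Sox4 arrays 1 and 3. With the mean of probe sets, 28 called named genes moved by over 1.5-fold in size. Of 28 gene lists, the number of rises or of falls moved by over 1.5 times in 21 with the fit of 3 groups, in 7 with the replicate block, in 7 with the mean of probe sets and in 9 to 11 without any 1 of the wild type arrays. Low signal limits genes near the floor.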
